A study of Drosophila melanogaster with 2 samples.

Results

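The genes described are 10 members of the sex determination pathway of Drosophila melanogaster: snf, Sxl, fl(2)d, vir, Ythdc1, tra, tra2, dsx, ix and her. They were chosen by name, because flies that lack ken (ken and barbie) form no external genitalia, and with earlier results of these data known. They stand among 13968 protein-coding genes annotated on the main chromosome arms. The data are ChIP-seq peak lists for Ken, a zinc finger protein with a BTB domain, tagged with enhanced GFP in the strain ken-GFP and precipitated from whole embryos aged 0 to 24 h. There was 1 group with 2 biological replicates and no second genotype, stage or treatment. The labels describe precipitation through GFP, although a separate field names ken as the antibody. The sex of the embryos was not collected, so male and female chromatin cannot be told apart, and neither can the tissues of the embryo. The labels name a possible control, which was not analysed here, and the read depth is unknown. The labels do not say whether untagged Ken was also present in these embryos.

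In flies the number of X chromosomes sets whether Sxl is switched on in the early embryo. Sxl encodes an RNA-binding splicing regulator, which keeps its own production going in females by acting on its own transcript and directs the female splicing of tra. Tra works with the RNA-binding protein Tra2 to give the female form of dsx, a transcription factor made in a female and a male form that controls most somatic sex differences, the genitalia among them. The genes snf, vir, fl(2)d and Ythdc1 act at the Sxl step: snf encodes a protein of the U1 and U2 spliceosomal particles, vir and fl(2)d encode subunits of the complex that writes m6A on RNA, and Ythdc1 encodes the nuclear reader of that mark. At the end of the cascade, ix encodes a Mediator subunit that works with the female form of Dsx, and her encodes a zinc finger protein that acts on Sxl and on targets of dsx.

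Ken peaks lay at the promoters of snf, Ythdc1, her and tra2, and none passed at Sxl, tra, dsx, fl(2)d, vir or ix. A gene was counted when the summit of a peak lay within 1000 bp of any of its transcription start sites (TSSs). In the conservative list made from both replicates, 4 of the 10 genes met this, where 17.2% of all protein-coding genes did. A summit anywhere inside the gene was allowed as well, which left the count at 4 of 10 against 18.2% of all genes. The list of replicate 1 alone held the same 4 genes (13.2% of all genes), and the list of replicate 2 alone held these and vir, 5 of 10 (16.3% of all genes). The more permissive thresholded list of both replicates also held 5 of 10, with vir as the fifth (18.6% of all genes). With 10 genes, each of them moves the share by 10 percentage points, and the difference from the background was not tested. The choice of genes was also not blind to earlier results of these data.

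**Figure D1:**
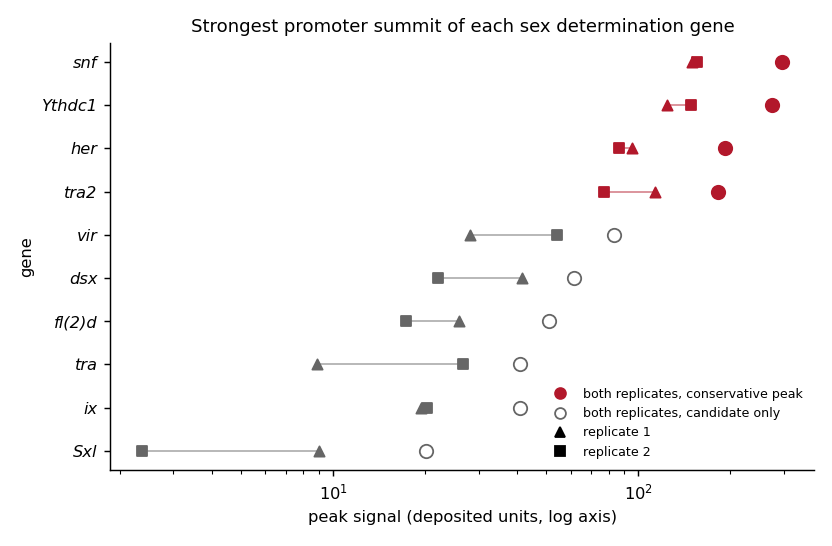
Signal of the strongest summit of both replicates within 1000 bp of a TSS for each gene, on a log axis. Circles give the list of both replicates. Triangles (replicate 1) and squares (replicate 2) give the candidate nearest to that summit within 200 bp, with a line joining the replicates. Filled red circles are conservative peaks and open circles are candidates that did not pass. The 4 genes with peaks sit at 182 to 297 and the other 6 at 20.2 to 83.0.

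Peak signals are values of the authors whose scale is not given, and they serve here to order peaks. Signal alone did not decide which candidates passed. The lowest conservative peak had 2.08, while a promoter candidate of 343 at the gene rump did not pass. At snf the signal was 297 in the list of both replicates, 150.1 in replicate 1 and 156 in replicate 2. At Ythdc1 it was 274, with 124 and 149 in replicates 1 and 2. Both replicates put snf above Ythdc1, and the higher Ythdc1 value, 149, fell just short of the lower snf value, 150.1. At her the signal was 192, with 95.3 and 86.2, and at tra2 it was 182, with 113 and 77.1. The order of her and tra2 turned between the replicates, so her and tra2 did not differ beyond their spread. All 4 had higher signals than the median conservative peak, 126, and stood at ranks 224, 271, 573 and 617 of 2087. Among all 2400 genes with a promoter peak the median of the strongest signal was 153.

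The summits from both replicates at snf, Ythdc1 and her were upstream of the start, in sequence annotated as intergenic (dm6 coordinates, Ensembl annotation). The snf peak, X at 5309099 to 5309284, had its summit 43 bp before the TSS of snf (FBgn0003449, X at 5309242 to 5310501, plus strand). The Ythdc1 peak, 3L at 3374182 to 3374292, had its summit 75 bp before the TSS of Ythdc1 (FBgn0027616, 3L at 3370451 to 3374170, minus strand). The her peak, 2L at 16677103 to 16677219, had its summit 6 bp before the TSS of her (FBgn0001185, 2L at 16677185 to 16679691, plus strand). The snf and her peaks ran past the start, and in replicate 1 the her summit was 14 bp downstream of it, in the 5' UTR. These 3 peaks were 186, 111 and 117 bp wide and so were narrower than the 410 bp of most peaks. Of the conservative peaks 19.0% were narrower than 410 bp, and their median signal was 306 against 111 for those of full width.

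The sequences at these starts are shown because they carry, or lack, the 5 base word CGATA, the core of the site of the promoter factor DREF. They are read from the RefSeq copy of the release 6 assembly (dm6) on the strand of the gene, 5′ to 3′. The first 3 end at the base before the TSS, and capitals mark CGATA or its complement TATCG.
snf, the whole 258 bp between the starts of Cdk7 and snf, chrX:5308984-5309241, plus strand: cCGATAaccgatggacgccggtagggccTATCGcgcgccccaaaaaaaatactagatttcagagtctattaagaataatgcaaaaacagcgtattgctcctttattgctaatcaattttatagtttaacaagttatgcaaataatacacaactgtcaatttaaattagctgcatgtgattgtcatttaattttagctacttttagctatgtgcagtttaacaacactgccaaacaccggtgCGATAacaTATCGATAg
Ythdc1, the whole 111 bp between the starts of CG12010 and Ythdc1, chr3L:3374171-3374281, minus strand: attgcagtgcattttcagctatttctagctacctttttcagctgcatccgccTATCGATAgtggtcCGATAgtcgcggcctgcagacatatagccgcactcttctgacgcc
her, the 200 bp before the start, chr2L:16676985-16677184, plus strand: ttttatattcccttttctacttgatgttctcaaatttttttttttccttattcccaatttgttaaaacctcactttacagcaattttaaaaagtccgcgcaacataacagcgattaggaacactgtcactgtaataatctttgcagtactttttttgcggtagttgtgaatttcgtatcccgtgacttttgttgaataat
her, a site of 30 bp across its start, chr2L:16677180-16677209, plus strand: ataatCGATAtcaacgaacagtaatCGATA

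All 4 peaks held CGATA near the summit. Within 100 bp of the summit it matched 4 times at snf, 4 times at Ythdc1, 2 times at her and 2 times at tra2, on either strand and counting overlapping matches. The nearest match was centred 28, 18, 8 and 16 bp from the summit in that order. The 8 base word TATCGATA, which holds CGATA on both strands, was at snf and Ythdc1 and at neither her nor tra2. The printed snf sequence held 5 matches, of which 3 began within 17 bp of the snf start and 2 at the Cdk7 end, 230 and 257 bp away and so over 100 bp from the summit. The printed Ythdc1 sequence held 3, which began 59, 56 and 45 bp before the start. At her the 200 bp before the start had none, and the matches began at the start itself and 20 bp into the gene. Of all 2031 conservative peaks on the main arms 75.3% held CGATA and 29.4% held TATCGATA within 100 bp of the summit, and of 19275 protein-coding TSSs 37.1% and 6.44% did within the same distance. In holding CGATA the 4 peaks were like most Ken peaks.

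Other words were rare at these summits. CAGCTG lay at 1 of the 4, Ythdc1, 4.5 bp from the summit, beside 12.2% of all conservative peaks and 13.4% of TSSs. The forms GNGAAAG and GNGAAAT of the consensus of Ken selected in vitro matched at 0 of the 4, beside 9.31% and 15.6% of all conservative peaks and 10.8% and 16.5% of TSSs. GGTCACACT, known as Motif 1, also matched at 0 of the 4 (4.28% of peaks, 4.42% of TSSs), as did CACGTG (3.20% and 2.80%) and the STAT sites TTCNNNGAA (5.66% and 6.06%) and the form with 1 more N (6.20% and 6.50%). An absent word says only that these letters are not in the 201 bp searched on both strands.

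**Figure D2:**
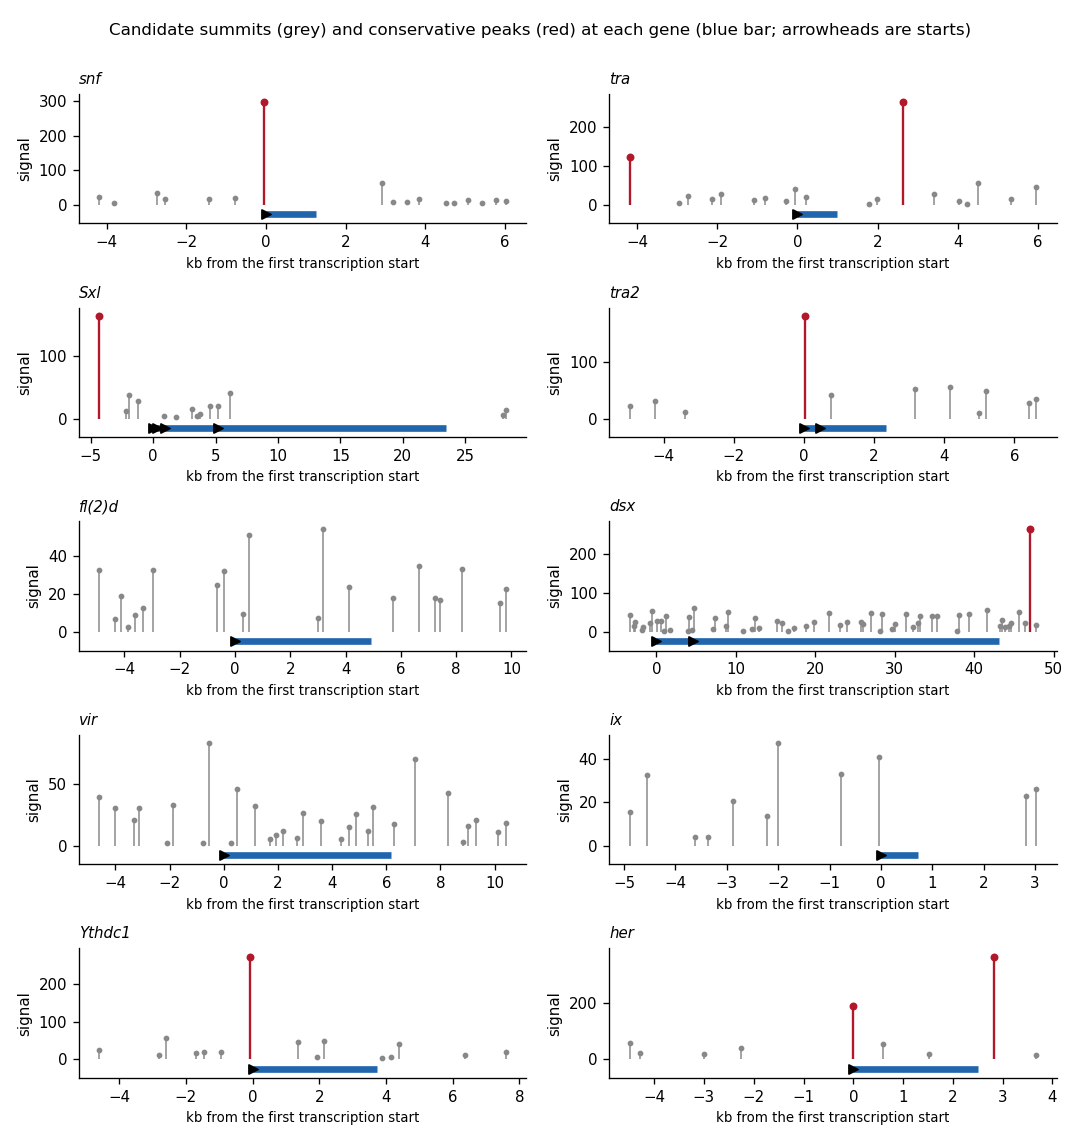
Every candidate summit of both replicates from 5 kb before to 5 kb after each gene, as distance in kb from the first TSS along the gene (x) and signal (y). Red marks conservative peaks and grey all other candidates, the blue bar is the gene and arrowheads are its TSSs; snf, Ythdc1, tra2 and her have a red summit at a start, and the red summits beside Sxl, tra, dsx and the end of her lie outside those genes.

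Sxl had the lowest promoter signal of the 10 genes in the list of both replicates. The gene (FBgn0264270, X at 7074550 to 7098053, minus strand) has 4 annotated TSSs, the last of them 5170 bp downstream of the first. The highest candidate within 1000 bp of any of them had a signal of 20.2, with 9.02 in replicate 1 and 2.37 in replicate 2. It lay 23 bp downstream of the innermost TSS, in the 5' UTR. The replicate values are those of the summits nearest to it, and the strongest promoter candidates of Sxl in the replicates' own lists were 11.95 and 9.62, elsewhere in the window. Across the 10073 genes with a candidate but no conservative promoter peak the highest candidate had a median of 35.3 (quartiles 26.7 and 45.7), and 11.2% of those genes were lower than Sxl. Just beyond the window, 1004 bp downstream of the innermost TSS, a candidate reached 41.5, with 12.8 and 28.6 in replicates 1 and 2. In the list of both replicates no candidate lay further into Sxl. From X 7069979 to 7091879 the list of both replicates held no summit for 21900 bp, which takes in 73.7% of the gene. Replicate 1 had 1 candidate of 22.4 at 3217 bp from the innermost TSS, beyond which its own gap was 16215 bp, and the gap of replicate 2 was 22517 bp. Gaps at least as long made up 0.140%, 0.198% and 0.182% of all gaps between neighbouring summits in these 3 lists, where the median gaps were 621, 683 and 703 bp. This gap was noticed after the values were seen. The lists do not show whether a summit could have been listed there, so the gap is no measure of low Ken signal.

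At tra, whose short transcript is the direct target of Sxl, the strongest candidate stood 69 bp before the TSS (FBgn0003741, 3L at 16590059 to 16591050, minus strand). This candidate reached 41.0 from both replicates, 8.87 in replicate 1 and 26.7 in replicate 2. The −log10 global IDR was 0.107, and the highest among the promoter candidates of tra was 0.692. The global IDR, the irreproducible discovery rate, falls as the rank of a peak repeats better. Every conservative peak had a −log10 value of at least 2.00. At dsx (FBgn0000504, 3R at 7924323 to 7967408, minus strand) the strongest candidate lay 101 bp downstream of the inner TSS, in the 5' UTR. It reached 61.7 from both replicates, 41.7 in replicate 1 and 22.1 in replicate 2, at a −log10 global IDR of 1.04. It was higher than 92.8% of the best candidates of genes without a promoter peak, while the tra candidate was higher than 64.8%. The 43086 bp of dsx held 36 further candidates over 1000 bp from a TSS, with signals up to 56.7, and 0 of them passed.

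The sequences before the starts of these 3 genes are shown beside the bound promoters above. Capitals again mark CGATA or TATCG, and each sequence is on the minus strand, which is that of the gene.
tra, the whole 156 bp between spd-2 and the tra start, chr3L:16591051-16591206: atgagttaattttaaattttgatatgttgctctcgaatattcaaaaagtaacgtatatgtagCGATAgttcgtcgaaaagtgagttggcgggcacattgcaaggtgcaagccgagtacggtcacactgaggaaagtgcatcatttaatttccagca
Sxl, 150 bp before the first TSS, chrX:7098054-7098203: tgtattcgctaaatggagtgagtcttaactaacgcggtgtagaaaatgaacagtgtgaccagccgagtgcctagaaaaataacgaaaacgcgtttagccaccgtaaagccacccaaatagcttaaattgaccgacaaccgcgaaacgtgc
Sxl, 150 bp before the innermost TSS, chrX:7092884-7093033: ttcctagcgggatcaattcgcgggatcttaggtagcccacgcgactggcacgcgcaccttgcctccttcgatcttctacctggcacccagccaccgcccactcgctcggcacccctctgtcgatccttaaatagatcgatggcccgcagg
dsx, 150 bp before the inner TSS, chr3R:7962787-7962936: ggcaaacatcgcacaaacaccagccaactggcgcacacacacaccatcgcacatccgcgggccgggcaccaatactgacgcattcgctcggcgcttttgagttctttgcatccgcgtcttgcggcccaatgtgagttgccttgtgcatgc
The tra sequence held 1 CGATA, which began 94 bp before the start, and 1 GGTCACACT, and the first Sxl TSS also had 1 GGTCACACT. The Sxl and dsx sequences printed here held 0 CGATA. Within 100 bp of a TSS, CGATA matched at tra, ix, vir, fl(2)d and 1 further TSS of Sxl, and at neither TSS of dsx, so genes without a peak also held the word. The Ken form GNGAAAT matched at fl(2)d, ix and 1 further TSS of Sxl, and both STAT forms matched at tra, none of which had a peak.

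At tra2 the peak was as strong as at her but had the full width of 410 bp. It lay on 2R at 14604106 to 14604515, with its summit 26 bp downstream of the first TSS in the 5' UTR of tra2 (FBgn0003742, 2R at 14602004 to 14604337, minus strand). The summit of replicate 1 was 1 bp from it and that of replicate 2 was 46 bp from it, 20 bp before the start. The second TSS of tra2, 471 bp further in, had only a candidate of 42.4 beside it, 287 bp downstream. Its replicate signals were 27.7 and 14.1. Of the 10 genes, tra2 is the only one with annotated alternative TSSs and a conservative peak, and the peak lay at the first of them.

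The m6A writer genes vir and fl(2)d were not called in the conservative list, and of the 6 genes without a peak vir had the highest candidate. The vir candidate, 2R at 23366700 to 23367109, reached 83.0, and the replicates gave 28.2 and 54.1. Replicate 2 was 1.92 times replicate 1, and its −log10 global IDR of 1.59 was below that of every conservative peak. Within replicate 2 alone its value was 2.60, and within replicate 1 it was 1.13. Its summit was 550 bp before the start of vir (FBgn0003977) but 39 bp into Ice1, which encodes a subunit of the little elongation complex and is read in the other direction, 511 bp away from the vir TSS. In the list of replicate 2 the summit was 508 bp before the vir start, so no list placed it within 500 bp. At fl(2)d (FBgn0000662, 2R at 13819624 to 13824553) the strongest promoter candidate was 51.1, 492 bp into the gene in a coding exon, with 25.95 and 17.3 in replicates 1 and 2. A second one, 3199 bp into the gene, reached 53.7 with a −log10 global IDR of 1.18. At ix (FBgn0001276, 2R at 11359437 to 11360163) the candidate 31 bp before the start had 40.9, with 19.3 and 20.3 in replicates 1 and 2.

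**Figure D3:**
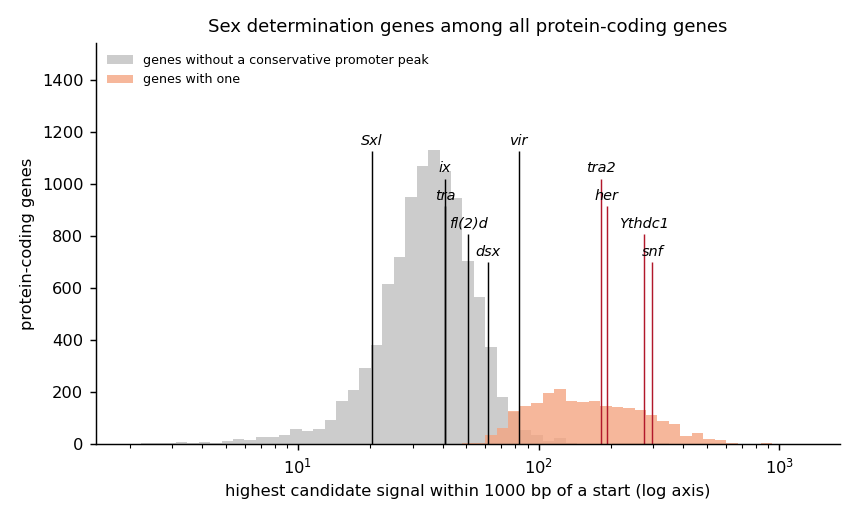
Number of protein-coding genes (y) by the highest candidate signal within 1000 bp of a TSS (x, log axis), in grey for genes without a conservative promoter peak and in orange for genes with one. Vertical lines place the 10 genes; snf, Ythdc1, her and tra2 (red) lie in the orange part, and of the others (black) Sxl lies to the left of the grey median of 35.3.

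In the order of signal at the promoter, vir at 83.0 was followed by dsx at 61.7, fl(2)d at 51.1, tra at 41.0, ix at 40.9 and Sxl at 20.2. Among replicate values within 200 bp of these summits, the ranges of neighbours in this order overlapped, except that both values of ix were above both of Sxl. On these values replicate 1 put dsx above vir, and both ix and Sxl above tra. Replicate 2 put tra above dsx and fl(2)d, and ix above fl(2)d. The order also depends on the summit taken: by the strongest promoter candidate of each replicate's own list, tra (21.8) was above ix (19.3) in replicate 1 and dsx (28.6) was above tra (26.7) in replicate 2. Between tra2 and vir the ranges were apart, since the lower value of tra2, 77.1, exceeded the higher of vir, 54.1. The candidates of vir, dsx and fl(2)d were higher than 98.4%, 92.8% and 82.9% of those of genes without a promoter peak.

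Every one of the 4 peaks lay within 1000 bp of the start of another protein-coding gene. The snf peak was 216 bp from the start of Cdk7, which encodes the kinase of the general transcription factor TFIIH, and the starts of both genes point away from each other, 259 bp apart. The Ythdc1 peak was nearer to CG12010, 37 bp away, than to Ythdc1, and these divergent starts are 112 bp apart. The her peak was 478 bp from Trpgamma, a gene of a TRP ion channel, which is divergent from her. The tra2 peak was 986 bp from CG12868, which runs in the same direction as tra2. Among all 2400 genes with a promoter peak 70.5% shared it in this way and 62.5% did within 500 bp, where 3 of the 4 did. The data cannot assign a peak between divergent starts to one gene or the other.

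Some genes without a peak adjoin genes that have one. The 3' end of tra overlaps that of l(3)73Ah, a RING finger gene of the Polycomb group, by 74 bp, and a peak of 265 stood 45 bp before the start of l(3)73Ah, 1629 bp beyond the tra gene. On its other side tra is 156 bp from spd-2, a centrosome gene that also had a promoter peak (123). The 3' end of dsx overlaps lds, a transcription termination factor gene, by 169 bp, and a peak of 264 lay between lds and CG10445, 3966 bp beyond dsx and 42429 bp from its nearest TSS. The peak nearest to Sxl, 164, was at the start of CG4615, 4319 bp from the first Sxl TSS. For vir, ix and fl(2)d the nearest conservative summits were 30358, 15487 and 129622 bp away. Beyond the end of her, a second and stronger peak of 366 stood 33 bp before the common start of squ and grp, the gene of the checkpoint kinase Chk1, 330 bp from her.

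**Figure D4:**
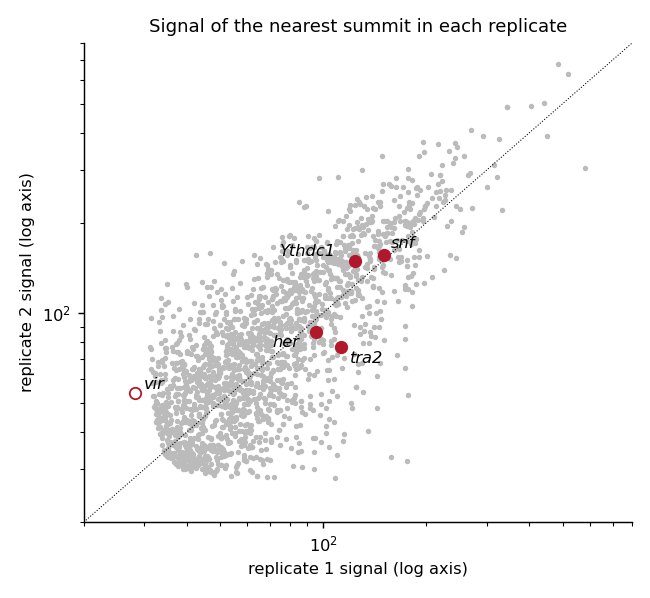
Signal in replicate 1 (x) and replicate 2 (y), log axes, at the candidate summit nearest to a conservative peak (grey). Grey points are the 1910 conservative peaks with such a summit within 200 bp in both replicates. The 4 genes with a peak are filled red and vir, which did not pass, is an open circle; the dotted line marks equal values, and tra2 lies below it while vir lies above it and left of all grey points.

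The replicates placed the 4 peaks within 57 bp of the summit from both replicates. The log2 ratio of replicate 2 to replicate 1 was 0.06 at snf, 0.26 at Ythdc1, −0.14 at her and −0.55 at tra2. Over the 1910 conservative peaks matched in each replicate the ratio had a median of 0.16 and quartiles of −0.23 and 0.52. The values of snf, Ythdc1 and her were inside the quartiles and that of tra2 was outside. The scale of the signal may differ between the replicates, so the ratios say only how a gene stands to the rest. In the order of signal, the snf peak stood between the promoter peaks of CG10565 (297.0) and mRpL3, a mitochondrial ribosomal protein gene (296.7). The Ythdc1 peak stood between l(1)G0289 and Cont, her between ref(2)P and Pi3K68D, and tra2 between RNaseX25 and Bap170, all of them within 75 bp of a TSS.

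The rest of the pathway was looked at through 5 lists with 45 further genes, which include the noncoding RNA genes roX1 and roX2. Of these 45 genes 10 had a promoter peak, 22.2% beside 17.2% of all protein-coding genes. In the X-chromosome signal 3 of 10 did. These were gro, a corepressor (128, with 82.6 and 56.7 in replicates 1 and 2), and the JAK-STAT genes hop (314) and Stat92E (285). The X-linked signal genes sisA, sc, upd1 and run had 0 peaks and candidates of 29.5 to 46.3, and dpn, da and emc had no candidate within 1000 bp in the ranked list that holds the conservative peaks. The more permissive thresholded list did hold a promoter peak at da. Among partners in splicing and translation 2 of 10 had one: Doa, a kinase of SR proteins (120.1, with 64.0 and 62.3 in replicates 1 and 2), and nito (97.9, with 42.3 and 60.6). Doa had 2 peaks, of which the stronger is given, and the nito summit was 351 bp upstream of its TSS. Other genes that share the promoters of these pathway genes are not named here.

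Among m6A writers and readers 3 of 6 genes had a promoter peak, beside 17.2% of all protein-coding genes. The writer subunit genes nito and Flacc had 97.9 and 139, and Ythdf, the cytoplasmic reader, had 103. At Ythdf replicate 1 had 34.4 and replicate 2 had 76.4, and the gene was not in the list of replicate 1. The catalytic pair Mettl3 and Mettl14 and the ubiquitin ligase gene Hakai had candidates of 70.5, 96.2 and 48.7 that did not pass, of which Mettl14 was in the list of replicate 2. Of all m6A genes, vir, fl(2)d and Ythdc1 included, Ythdc1 had the highest signal at its promoter, 274 against 139 for Flacc. That peak lay between the divergent starts of Ythdc1 and CG12010, nearer to CG12010, and cannot be assigned to either gene. The more permissive list added vir and Mettl14, and at a global IDR at or below 0.001 only Ythdc1 of these m6A genes was left.

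Dosage compensation raises transcription of the male X and is held off in females by Sxl through msl-2. Of its 7 genes, among them the noncoding RNA genes roX1 and roX2, 3 had a promoter peak, beside 17.2% of all protein-coding genes. These were msl-1 (301, with 108.5 and 196 in replicates 1 and 2), mof, the acetyltransferase gene (148), and msl-3 (90.8, in neither replicate's own list). The Sxl target msl-2 had a candidate of 46.4, mle had none within 1000 bp in the same ranked list, and the noncoding RNA genes roX1 and roX2 had 14.4 and 39.96. Of the 13 genes listed as targets of tra and dsx or as patterning genes of the genitalia 0 had a promoter peak. With 17.2% of all protein-coding genes having one, a list of this size can hold 0 without standing apart. They comprised fru, the yolk protein genes Yp1, Yp2 and Yp3, bab1, bab2, bnl, btl, dac, Abd-B, Poxn, Fad2 and dsf, and their best candidates ran from 12.1 at Yp2 to 58.3 at Abd-B, with none listed at Yp3. The lists were chosen with results known, and no difference from the background was tested.

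**Figure D5:**
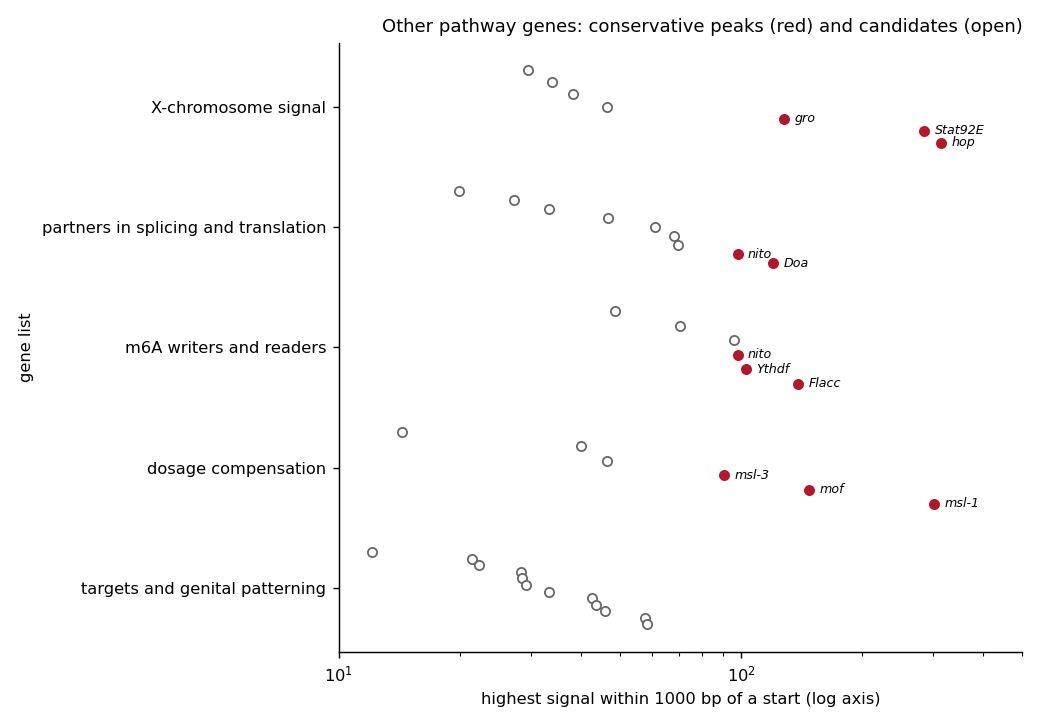
Highest signal within 1000 bp of a TSS (x, log axis) for the other genes of the pathway, by list (y). Red points with names are conservative peaks and open points are the best candidates of genes without one; no gene of the targets list is red, and genes with no candidate of both replicates are not drawn.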

How the data were processed

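The peak lists were derived by the authors from alignments on dm6, per the deposited notes, and the aligner and peak caller are not named there. Chromatin was sheared to 200 to 800 bp, per the labels. The lists hold a signal per peak on no stated scale, a deposited IDR score capped at 1000, and, in ranked lists, the −log10 global IDR as deposited. The conservative list (2087 peaks) was the main list, and its ranked list (152561 candidates) was found by identical coordinates and scores. Replicates 1 and 2 had 1544 and 1819 thresholded peaks and 137061 and 124478 candidates. In the ranked lists of both replicates, 16 columns of single inputs were not used. No counts or depths were used, so no interval is given, and replicate spread is 2 values.

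The Ensembl annotation gave genes and TSSs. Replicate signals came from the nearest candidate summit within 200 bp in the ranked list of that replicate. Scripts used Python 3.11.15 and pandas 2.3.3, and assignment was tested on simulated data. All members are named, as are neighbours, every listed pathway gene with a peak and the peaks next in order of signal. The members and lists were chosen with earlier results of these data known. Of the listed pathway genes, 1 is not reported here and is left out of the counts. Names of 2 listed genes matched with other capitals (SRPK, Flacc). Counts were recomputed with other windows, lists, thresholds and RefSeq starts.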

Additional observations from a re-analysis of the deposited data

How the results depend on the processing

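The members with a promoter peak numbered 4 or 5 under every alternative tried (windows of 500 and 200 bp, the other thresholded list, each replicate's list, a global IDR at or below 0.001, peak intervals in place of summits, and RefSeq starts, which were added after the data were seen). For all members the RefSeq starts are the same as the Ensembl starts, so that setting could not change their count. The replicate lists gave 4 to 5, and vir was the gene gained. The count with gene bodies also ran from 4 to 5. The other pathway genes with a peak fell from 10 to 4 at a global IDR at or below 0.001 (Stat92E, hop, mof and msl-1). They rose to 13 in the other thresholded list (gaining Mettl14, da and pps), were 9 at a 200 bp window (losing nito), and numbered 8 to 10 in the replicate lists. The number of the 4 peaks that held each word was the same within 50 bp of the summit (matches per peak were not recounted). With summits allowed 100 or 500 bp apart, 16 of 16 recomputed replicate signals were the same. They could not differ, because the nearest summit was taken and it lay within 57 bp at each of the 4 peaks. No paired analysis was possible because the series has 1 group. Weak candidates such as those at Sxl and tra cannot be read as absence of Ken, because depth is unknown and control chromatin was not analysed here.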
